A study of Homo sapiens with 6 samples.

Results

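The genes described here make and load major histocompatibility complex (MHC) class I molecules, which show fragments of a cell's own proteins to T cells. They were taken by name, as the rows for HLA-B, HLA-C, HLA-E, B2M, TAP1, TAP2, TAPBP, PSMB8 and PSMB9, which gave 9 of the 25277 gene rows of the table. As background, a class I molecule is a heavy chain, such as HLA-B, HLA-C or HLA-E, paired with the light chain that B2M encodes. Proteasomes carrying the interferon-inducible catalytic subunits PSMB8 and PSMB9 cut proteins into peptides, the TAP1 and TAP2 transporter carries these into the endoplasmic reticulum, and tapasin, the product of TAPBP, helps to load them. On B cells the loaded molecule is what cytotoxic T cells recognise, and its loss is a known route of immune escape in B-cell lymphomas.

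The RNA came from 2 established human cell lines, Jeko and Rec-1, labelled as mantle cell lymphoma, a B-cell cancer. Each line gave 3 libraries, 1 with an empty CRISPR/Cas9 vector as control, 1 with NR4A1 sgRNA#1 and 1 with NR4A1 sgRNA#2, where an sgRNA is the guide that directs the Cas9 nuclease to a gene, here the nuclear receptor gene NR4A1. All 6 carried a tet-on vector and were taken after 48 h of doxycycline, the controls included. The labels do not say whether a line is 1 clone, or whether libraries come from separate cultures, so p-values measure the spread between these libraries, which may be technical. The values are FPKM, fragments scaled to transcript length and to the total mapped, and how many fragments lie behind each is not known. With RNA from whole cultures, fewer cells that express a gene and less RNA per cell cannot be told apart.

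NR4A1 was 5.99 FPKM in the control of Jeko and 3.89 and 4.44 with its guides 1 and 2. In Rec-1 it was 11.6 in the control and 27.4 and 12.7 with the guides. Its mRNA was thus below the control in Jeko and above the library labelled control in Rec-1, and an FPKM value does not show whether a transcript was edited. The 3 libraries labelled Rec-1 did not go together. The Pearson r of the library labelled Rec-1 control across 10313 protein-coding genes (a description, since genes are no replicates) was 0.988 with the Jeko control, 0.804 with Rec-1 sgRNA 1 and 0.811 with Rec-1 sgRNA 2. All 6 B-cell markers checked were at 1 FPKM or more in every library. The mantle cell lymphoma gene CCND1 lay at 442 to 815 FPKM in 4 libraries, those of Jeko and the Rec-1 control. It was 0.696 and 0.592 with the 2 guides in Rec-1, so for this gene they go against the labelled mantle cell lymphoma. Of the other markers checked for that lymphoma, CD5 was at most 0.0785 FPKM in all 6 libraries and did not separate them. SOX11 was 7.11 to 11.1 FPKM in the same 4 libraries, and 3.605 and 2.451 with guides 1 and 2 in Rec-1. The 3 T-cell markers CD3D, CD3E and CD2 summed to 71.5 and 101.1 FPKM in those 2 libraries and to 0.361 to 0.993 in the other 4, with CD2 at or near 0 in all 6. Of the other markers, myeloid genes summed to at most 1.97 FPKM and stromal genes to at most 3.65. The part of these differences in any result below was not tested. Which of the labels is in doubt cannot be told from these values, so both the comparisons with the Rec-1 control and those with the Rec-1 sgRNA libraries carry that doubt. The comparison of sgRNA with control is also given without the Rec-1 control, and the interaction cannot be computed without it.

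Of the 9 genes, 6 were listed at 0 in all 6 libraries. These were the heavy chain HLA-E, the transporter subunits TAP1 and TAP2, tapasin (TAPBP) and the immunoproteasome subunits PSMB8 and PSMB9. HLA-C was 0.0559 FPKM in the Jeko control and 0.0254 in Jeko sgRNA 2, and was listed at 0 in Jeko sgRNA 1 and in the 3 Rec-1 libraries. HLA-B was 7.15 FPKM in the control, 8.23 with sgRNA 1 and 10.5 with sgRNA 2 in Jeko, and 6.39, 7.29 and 6.17 FPKM in the same order in Rec-1. It was highest in Jeko sgRNA 2, and the other 5 libraries lay within 6.17 to 8.23 FPKM. B2M was 2328 FPKM in the control, 3136 with sgRNA 1 and 2790 with sgRNA 2 in Jeko, and 1597, 2769 and 2806 FPKM in that order in Rec-1. All 4 sgRNA libraries were above both controls, and the Rec-1 control was the lowest of the 6.

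**Figure D1:**
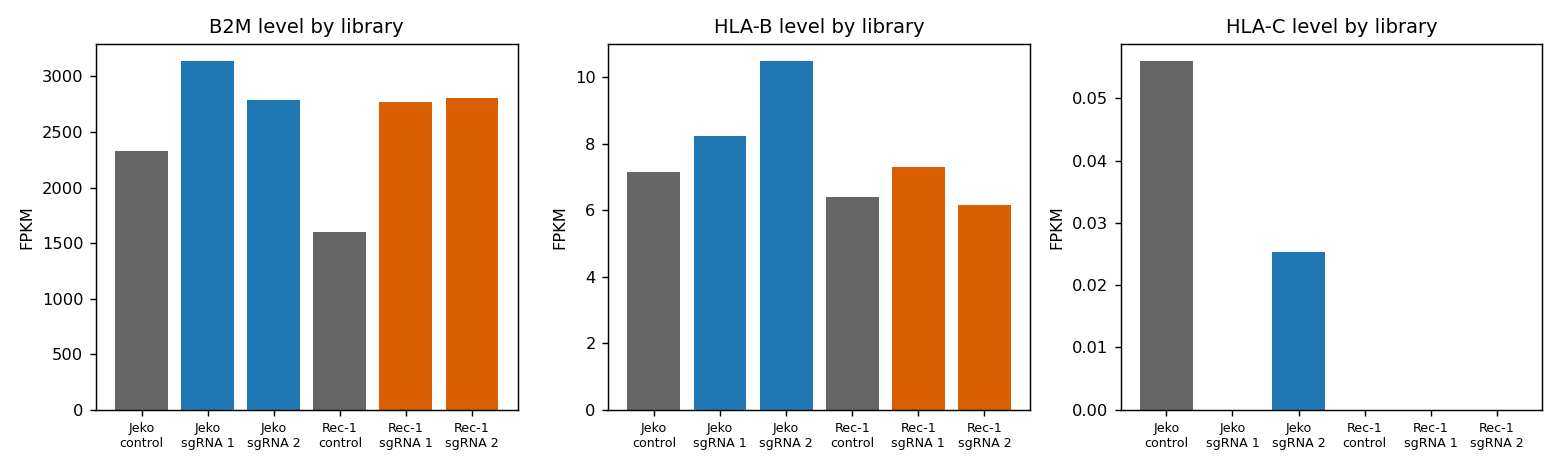
FPKM (vertical axis, from 0, a separate scale per panel) of B2M, HLA-B and HLA-C in the 6 libraries, with 1 bar per library and no replicate of either control. B2M runs from 1597 to 3136 FPKM, HLA-B from 6.17 to 10.5 and HLA-C from 0 to 0.0559. The other 6 genes are listed at 0 throughout.

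The light chain and the heavy chains stood far apart in the table. B2M ranked between 49th and 86th of the 25277 rows in a library, while HLA-B ranked between 5632nd and 7339th. On the FPKM scale, which is per length, the B2M level was between 250 times (Rec-1 control) and 455 times (Rec-1 sgRNA 2) that of HLA-B. Class I heavy chains and the light chain form the complex as equal partners, which is background on the protein and not a measure of these mRNAs.

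The zeros followed position. In GRCh37, the build named hg19 in the submitters' processing notes, the canonical transcripts of 8 of the 9 genes lie on chromosome 6, from HLA-E (start 30457286) to TAPBP (end 33281855), a stretch of 2.82 Mb. B2M lies on chromosome 15, from 45003715 to 45010343. Within that stretch of chromosome 6, 113 of 127 protein-coding genes, or 89.0%, were listed at 0 in all 6 libraries. The share was 52.2% (35 of 67 genes) in an equal length below it, 15.6% (7 of 45) in an equal length above it, 20.8% (180 of 864) over all of chromosome 6 outside it, and 18.3% (3283 of 17895) on the other chromosomes. Only 5 of the 127 genes had a mean of at least 1 FPKM. They were HLA-B and the class II genes HLA-DRB5, HLA-DRB1, HLA-DQA1 and HLA-DQB1, which were named after their values were seen.

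Genes that every cell uses were among the zeros. RPS18, a ribosomal protein gene at 33239852 to 33244288, was listed at 0, as were TUBB (a tubulin), DDX39B (mRNA export), BAG6 (protein quality control) and CSNK2B (a kinase subunit), all inside the stretch and named after their values were seen. A value of 0 for TAP1, TAP2, TAPBP, PSMB8, PSMB9 or HLA-E in this table is therefore given only as a listing at 0 and not as an absence of the mRNA. HLA-B and HLA-C lie in the same stretch, and what share of their mRNA their values hold is not known. The cause of the zeros was not tested.

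**Figure D2:**
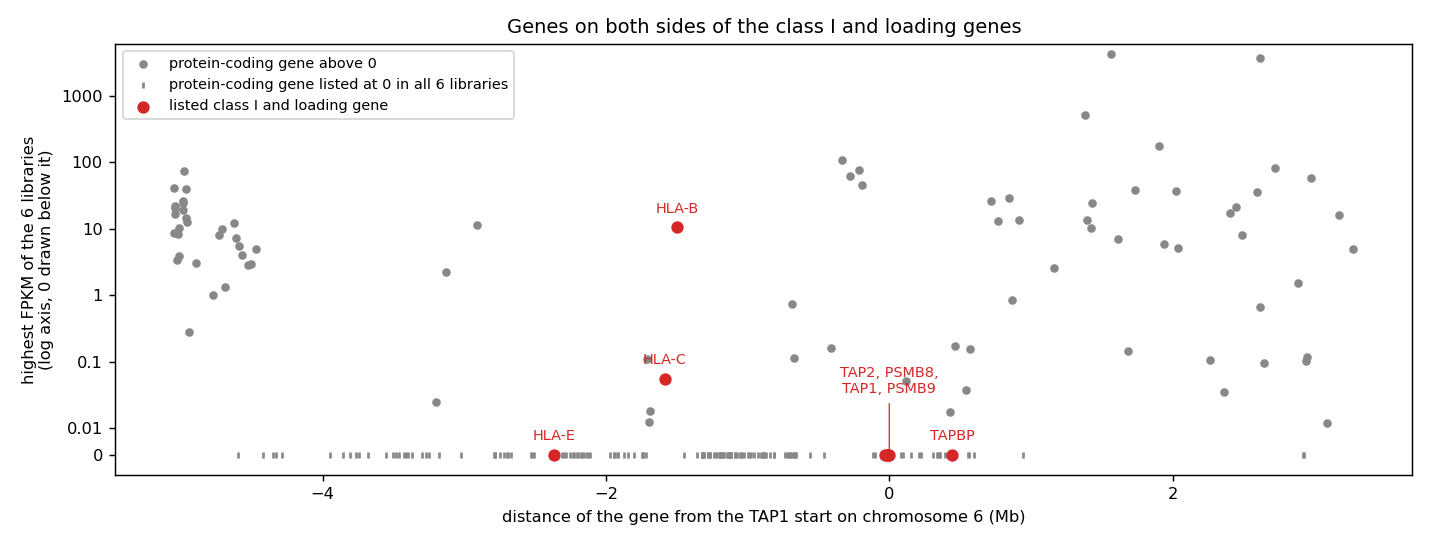
Highest FPKM over the 6 libraries (vertical log axis, with 0 drawn below it) of protein-coding genes on chromosome 6, by distance from the TAP1 start in Mb, with the class I and loading genes in red. Of the 127 genes from HLA-E to TAPBP, 113 sit at 0, and values are common again on both sides.

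Sequence shared with other genes bears on how reads can be assigned. The canonical transcript of each gene was cut into overlapping 31-base words, and words were looked up on both strands of all other annotated transcripts in GRCh37. None of the 1094 words of PSMB8 or the 987 of PSMB9 occurred in another gene or of the 913 of B2M. For HLA-B 32.0% of 1506 words occurred in another gene, for HLA-C 19.6% of 1512 and for HLA-E 13.9% of 2518. Words shared with another of the 9 genes made up 12.2%, 13.2% and 4.09% in that order. The shared words of HLA-E occurred in 665 other genes, those of HLA-B in 16 and those of HLA-C in 18. Reads that fall on shared words can be split between genes, so these values are uncertain. The shares for TAP1, TAP2 and TAPBP were 22.6%, 35.5% and 45.1%, and the shared words of TAPBP occurred in 7220 other genes. This search covers annotated transcripts of the primary assembly alone. Whether the authors' genome held further copies of the region, and how fragments with several matching places were counted, is not given in the sources used here.

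Class I genes are switched on through shared promoter elements. An interferon-stimulated response element binds interferon regulatory factors, a kappa-B site binds NF-kappa-B, and a CRE core with a Y box (an inverted CCAAT) forms part of the module through which RFX, NF-Y and the coactivator NLRC5 act. The 250 bases before the transcript start are shown for the 2 genes that had measurable levels, because these are the promoters on which the levels below bear. Capitals mark matches, on either strand, to the response element (GAAA, any 2 bases, GAAA), the kappa-B site (GGGGA, any 2 bases, CCC), the CRE core (TGACG) or the Y box (ATTGG).
B2M (GRCh37, chr15:45003465-45003714, plus strand): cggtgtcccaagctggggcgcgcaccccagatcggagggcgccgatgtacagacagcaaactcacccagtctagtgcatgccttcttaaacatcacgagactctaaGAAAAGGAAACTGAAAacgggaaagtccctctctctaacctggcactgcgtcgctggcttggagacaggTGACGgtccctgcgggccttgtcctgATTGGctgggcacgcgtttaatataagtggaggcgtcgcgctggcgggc
HLA-B (GRCh37, chr6:31324957-31325206, minus strand): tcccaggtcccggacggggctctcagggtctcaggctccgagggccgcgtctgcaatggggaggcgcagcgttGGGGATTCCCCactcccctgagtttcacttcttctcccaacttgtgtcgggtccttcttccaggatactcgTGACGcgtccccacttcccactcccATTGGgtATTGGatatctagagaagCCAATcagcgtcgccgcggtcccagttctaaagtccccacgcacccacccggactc

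Both promoters hold a CRE core and a Y box, in that order towards the start. In B2M they begin 75 and 49 bases before it, and in HLA-B the CRE core begins 106 bases before it with Y boxes at 81, 74 and 56. B2M has 2 overlapping response elements, at 144 and 138, and no kappa-B match, while HLA-B has 2 overlapping kappa-B matches, at 177 and 176, and no response element. Among the 9 genes, 6 had a CRE core (25.3% of 20136 protein-coding promoters of this length do), 6 a Y box (34.2%), 4 a response element (B2M, TAP1, TAP2 and TAPBP, against 2.87%) and 1 a kappa-B match (2.84%). TAP1 and PSMB9 start in opposite directions with 487 bases between them. A match is a description of the letters, and no match says only that these letters are not in the window.

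With the 4 sgRNA libraries set against the 2 controls, neither B2M nor HLA-B passed the threshold. The other 7 genes were under the filter of a mean of 1 FPKM and were not tested. B2M differed by 0.57 on the log2(FPKM + 1) scale, or 1.49-fold (SE 0.16, 95% interval 0.17 to 0.98, limma unadjusted p = 0.0136, adjusted p = 0.186). The threshold of an adjusted p under 0.05 was passed by 0.246% of the 11400 genes tested, and 21.1% had an unadjusted p under 0.05. B2M was above the own-line control in all 4 libraries, by 0.43 (sgRNA 1) and 0.26 (sgRNA 2) in Jeko and by 0.79 (sgRNA 1) and 0.81 (sgRNA 2) in Rec-1. That direction in all 4 was shared by 21.0% of genes, and 17.0% had all 4 sgRNA libraries above both controls, so such a pattern was common. Without the Rec-1 control, whose B2M level was 0.54 below that of the Jeko control, the B2M difference was 0.35. Without the Jeko control the B2M difference was 0.80, so its size depended on which control was used.

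HLA-B differed by 0.20 (SE 0.20, 95% interval −0.29 to 0.69, limma adjusted p = 0.549). It was above its control by 0.18 and 0.49 in Jeko sgRNA 1 and 2 and by 0.16 in Rec-1 sgRNA 1, and differed by −0.045 in Rec-1 sgRNA 2, so the groups overlapped. Without the Rec-1 control the HLA-B value was 0.34, without the Jeko control it was 0.060, and without Jeko sgRNA 2 it was 0.11 (limma adjusted p = 0.622, 0.883 and 0.781). Neither gene differed by 2-fold from its control with both guides, which 3.04% of genes did in Jeko and 23.3% in Rec-1. The 2 controls also differed by under 2-fold at both genes, by −0.54 at B2M and −0.14 at HLA-B, while 2.51% of genes passed 2-fold. At 1.5-fold, B2M passed with both guides in Rec-1, as did 40.4% of genes, but not in Jeko (11.3%) or between the controls (6.67%), and HLA-B passed in none of the 3.

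Transcript length moved with these differences. B2M (943 bases) and HLA-B (1536 bases) belong to the shortest of 5 equal groups of protein-coding genes by canonical transcript length, 295 to 1741 bases. In that group the median difference from the own-line control ran from −0.36 to −0.22 over the 4 sgRNA libraries, and in the longest group it was between 0.15 and 0.37. B2M thus lay above zero where most short genes lay below. With values adjusted for length, the sgRNA difference was 0.87 for B2M (limma adjusted p = 0.237) and 0.47 for HLA-B (limma adjusted p = 0.312).

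**Figure D3:**
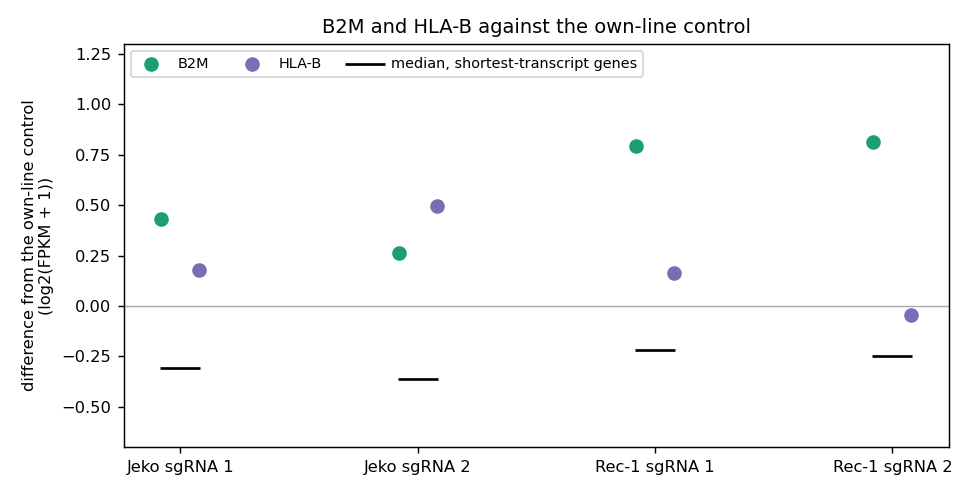
Difference from the own-line control on the log2(FPKM + 1) scale (vertical axis) for B2M and HLA-B in the 4 sgRNA libraries, with 1 point per gene and library, and the median of the shortest group of transcripts as a black bar. B2M is at 0.26 to 0.81, HLA-B at −0.045 to 0.49, and the bars at −0.36 to −0.22.

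The libraries labelled Rec-1 sgRNA were compared with those labelled Jeko sgRNA, 2 against 2. The Rec-1 pair is the one with CCND1 at 0.696 and 0.592 FPKM and with CD3D at 66.3 and 95.3, so this contrast sets these libraries side by side, and whether it is one of lines cannot be told apart from a mistaken label. The B2M mean was 2788 ± 26.1 FPKM (SD, n = 2) in Rec-1 and 2963 ± 244 in Jeko. The difference of −0.085 on the log2 scale (SE 0.17, 95% interval −0.55 to 0.38, limma adjusted p = 0.736) was within the spread between guides, and the interval excludes a change of 2-fold in either direction. HLA-B was 6.73 ± 0.793 FPKM (SD, n = 2) in Rec-1 and 9.35 ± 1.59 in Jeko. Both Rec-1 values were below both Jeko values, as at 37.0% of genes, and the difference of −0.42 (SE 0.21) did not pass, with a limma adjusted p of 0.217 and a 95% interval that ended at 0.17. Leaving out 1 library moved the HLA-B difference from −0.26 (without Jeko sgRNA 2) to −0.57 (without Jeko sgRNA 1), and that of B2M from −0.0013 (without Jeko sgRNA 1) to −0.17 (without Jeko sgRNA 2). At 25.7% of genes the limma adjusted p was under 0.05. Neither gene had an unadjusted p under 0.05, which 41.9% of genes had. Lines differ in their HLA-B alleles in general, and whether alleles were captured equally in the 2 lines was not tested.

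The sgRNA effect was also compared between the lines. For B2M the Rec-1 effect exceeded that in Jeko by 0.46 (SE 0.25, limma adjusted p = 0.380), and for HLA-B the difference was −0.28 (SE 0.34, limma adjusted p = 0.683). The HLA-B value was −0.12 without Jeko sgRNA 2, −0.43 without Jeko sgRNA 1 and −0.17 without Rec-1 sgRNA 2. Neither passed, against 6.94% of genes that did, and neither had an unadjusted p under 0.05, against 21.9%. Each line has 1 control, so the spread here is that between its 2 guides, and the comparison needs both controls.

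The genes that work with these 9 lie mostly on other chromosomes and had values. Lists of 52 such genes, in 5 groups, were compared between Rec-1 and Jeko sgRNA libraries, and 44 passed the filter. Of these 10 were lower and 2 higher in Rec-1 at a limma adjusted p under 0.05, against 13.1% lower and 12.6% higher of all genes tested. HLA-F, among the 10, passed the filter through the Jeko libraries together with the Rec-1 control, and is listed at 0 in both Rec-1 sgRNA libraries. Without it 9 of 43 were lower. The median of the 44 was −0.30, and −0.27 without HLA-F, beside −0.031 for all genes. In the sgRNA comparison 0 of the 44 passed by limma, against 0.246% of all genes (9 had an unadjusted p under 0.05), and in the interaction 1, TAPBPL, did, against 6.94%. Of the T-cell markers named above, CD3D and CD3E but not CD2 are higher in the same 2 Rec-1 libraries. Their part in these differences was not tested.

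Among loading chaperones and trimming enzymes, 2 of 10 were lower in Rec-1 and 0 higher. TAPBPL, a tapasin relative that edits the peptides bound to class I, was 29.3 and 35.2 FPKM in Jeko sgRNA 1 and 2 and 3.21 and 4.39 in Rec-1 sgRNA 1 and 2. The controls were at 25.0 (Jeko) and 24.4 (Rec-1), on the Jeko side. The TAPBPL difference was −2.80 on the log2 scale (SE 0.23, limma adjusted p = 0.00390). ERAP1, an aminopeptidase that trims peptides in the endoplasmic reticulum, was 37.8 and 60.1 FPKM in Jeko and 9.80 and 13.7 in Rec-1. The ERAP1 difference was −1.95 (SE 0.32, limma adjusted p = 0.0218). Its controls were at 24.4 (Jeko) and 20.3 (Rec-1), between the sgRNA groups.

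Of 9 other proteasome genes, 3 passed as lower and 0 as higher in Rec-1, and all 3 encode activator subunits. PSME2 was 319 and 291 FPKM in the Jeko sgRNA libraries and 80.3 and 149 in those of Rec-1 (−1.47, SE 0.35, limma adjusted p = 0.0483). PSME1, its partner in the interferon-inducible activator ring, was 391 and 341 FPKM against 168 and 213 (−0.95, SE 0.21, limma adjusted p = 0.0413). PSME3, which forms a separate nuclear activator, differed by −0.87 (SE 0.20, limma adjusted p = 0.0461). It was 67.5 and 52.8 FPKM in the Jeko sgRNA libraries and 31.4 and 32.9 in those of Rec-1. The PSME3 controls were at 47.6 (Jeko) and 43.0 (Rec-1), between the sgRNA groups. PSMB10 is the immunoproteasome subunit outside the MHC stretch and replaces PSMB7. The ratio of PSMB10 to PSMB7 FPKM was 0.775 in the control, 0.761 with sgRNA 1 and 0.781 with sgRNA 2 in Jeko, and 0.641, 1.66 and 0.952 in that order in Rec-1. Both Rec-1 sgRNA libraries were above the other 4, and they differed from each other more than those did. PSMB7 was 83.6 and 98.0 FPKM in Rec-1 sgRNA 1 and 2, and 125 to 169 in the other 4. PSMB10 was 138 and 93.3 FPKM in Rec-1 sgRNA 1 and 2, and 97.5 to 131 in the other 4. The higher ratio in Rec-1 sgRNA 2 thus goes with lower PSMB7 and not with more PSMB10. The ratios of PSMB8 to PSMB5 and PSMB9 to PSMB6 cannot be formed with numerators listed at 0. PSMB10 (0.20, SE 0.25, limma adjusted p = 0.588) and PSMB5 (0.62, SE 0.17, 0.0681) did not pass. PSMB6 (−0.47, SE 0.17, limma adjusted p = 0.113) and PSMB7 (−0.50, SE 0.18, 0.111) did not pass either. Their unadjusted limma p was 0.046 and 0.045, so a fall limited to activator subunits is not shown.

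Among 13 transcription factors of class I genes, 3 were lower in Rec-1 and 0 higher. NLRC5, the class I coactivator, was 8.58 and 5.45 FPKM in the Jeko sgRNA libraries, 2.48 and 2.36 in those of Rec-1, and 7.21 and 6.47 in the Jeko and Rec-1 controls (−1.20, SE 0.25, limma adjusted p = 0.0379). RFX5, a subunit of the RFX complex that binds the same module, was 68.4 and 75.1 FPKM against 17.9 and 25.9 (−1.69, SE 0.24, limma adjusted p = 0.0163). NFKB1 differed by −0.78 (SE 0.17, limma adjusted p = 0.0434). It was 27.2 and 24.3 FPKM in the Jeko sgRNA libraries and 14.7 and 14.6 in those of Rec-1. The NFKB1 controls were at 19.2 (Jeko) and 15.7 (Rec-1), between the sgRNA groups.

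Of 9 interferon receptor and kinase genes, JAK1 was lower in Rec-1 (−1.03, SE 0.16, limma adjusted p = 0.0202). IFNGR1, the ligand-binding chain of the interferon-gamma receptor, was higher (1.31, SE 0.27, limma adjusted p = 0.0382). JAK1 was 37.5 and 38.5 FPKM in the Jeko sgRNA libraries and 18.1 in both of Rec-1. The JAK1 controls were at 20.4 (Jeko) and 22.5 (Rec-1), nearer the Rec-1 sgRNA libraries. IFNGR1 was 6.59 and 6.35 FPKM in the Jeko sgRNA libraries and 13.9 and 21.9 in those of Rec-1. The IFNGR1 controls were at 9.74 (Jeko) and 10.1 (Rec-1), between the sgRNA groups. Of 11 class I-like chains, 3 were tested. FCGRT, the heavy chain of the neonatal Fc receptor, which pairs with the B2M product, was 0.902 and 0.812 FPKM in Jeko sgRNA libraries and 3.94 and 5.25 in those of Rec-1 (1.58, SE 0.18, limma adjusted p = 0.00888). HLA-F, a class I gene on chromosome 6 (29691211 to 29695073), was 1.89 and 2.27 FPKM in the Jeko sgRNA libraries and listed at 0 in both of Rec-1. Its call rests on those listed zeros, which have no spread, and no p is given. HLA-F lies in the equal length below the stretch, where 35 of 67 genes were listed at 0, and it has close relatives, so its value is uncertain.

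**Figure D4:**
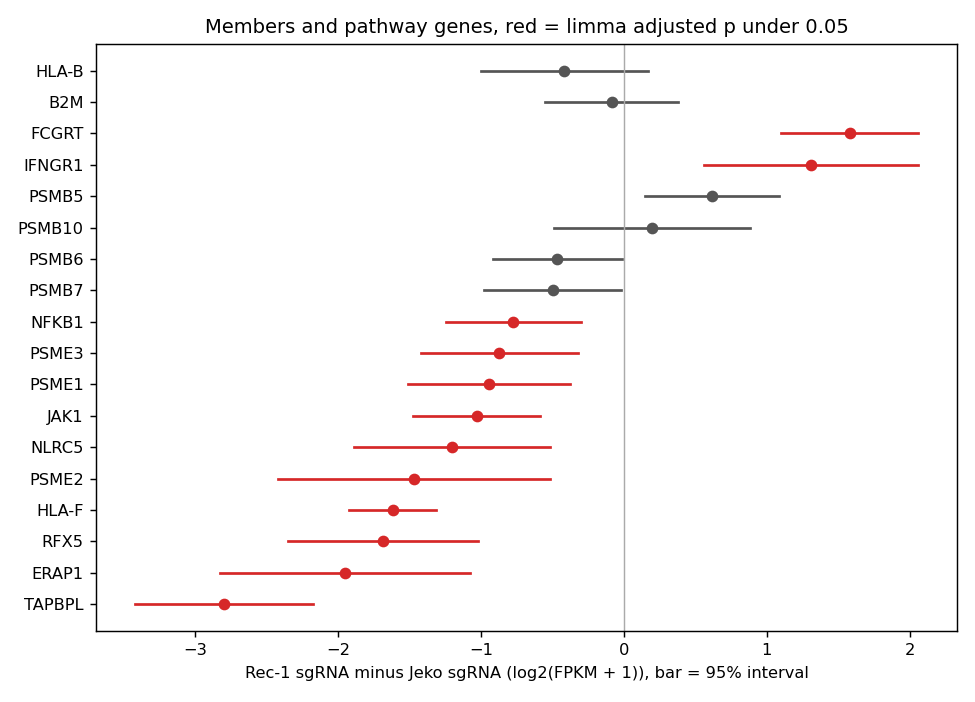
Difference between Rec-1 and Jeko sgRNA libraries on the log2(FPKM + 1) scale (horizontal axis) for HLA-B, B2M and 16 pathway genes, with bars for the 95% interval from limma and red for an adjusted p under 0.05. HLA-B and B2M are grey with intervals that include 0, and 10 of the 12 red genes lie to the left, HLA-F among them through values listed at 0.

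These calls rest on 2 libraries a group. When each sgRNA library was left out in turn, leaving 1 library in a line that was assumed to vary like the other, TAPBPL kept an adjusted p under 0.05 in all 4 runs (highest limma adjusted p 0.0454). HLA-F did too, but with its Rec-1 side fixed at listed zeros this says nothing about its stability. ERAP1, PSME1, PSME3, NLRC5, RFX5, NFKB1, IFNGR1 and JAK1 passed in none of the 4 runs, with highest limma adjusted p from 0.0948 (RFX5) to 0.187 (NFKB1). FCGRT passed in 2 of them (highest 0.0629), and PSME2 in the 1 without Rec-1 sgRNA 2 (highest 0.202). All 12 kept their direction.

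The genes most like the 9 in pattern were sought among 6202 tested genes that spanned at least 1 on the log2(FPKM + 1) scale. With 6 of the 9 at 0, the mean profile compared is that of B2M and HLA-B with a trace of HLA-C. Over the 6 libraries the highest Pearson r belonged to PHLPP1 (0.975), DNAJC5B (0.966), PIEZO1 (0.945), CUX1 (0.931) and TMEM64 (0.928). DNAJC5B went from 6.41 FPKM in the Jeko control to 15.5 and 14.8 with sgRNA, and from 3.17 in the Rec-1 control to 10.9 and 9.38 with sgRNA. Like B2M, all 5 were lowest in the Rec-1 control. Choosing them by likeness to this profile favours that, so it is no separate result. With 6 libraries and so many genes these values only describe the order.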

How the data were processed

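The authors deposited 1 table of FPKM for 6 libraries, with the unit per the file headers. TopHat and hg19 are named in the submitters' processing notes. The program that computed FPKM, the annotation and the use of strand are not given in the sources used here. Columns were matched to samples by line and guide number. Depth is unknown, so no counting interval was computed.

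Values were analysed as log2(FPKM + 1), which understates changes of low genes. A filter of a mean of 1 FPKM or more left 11400 genes, tested with limma 3.58.1 in R 4.3.3 (mean-variance trend, Benjamini-Hochberg adjustment over all genes, threshold 0.05). The sgRNA effect was fitted on all 6 libraries with line as covariate, the line difference on the 4 sgRNA libraries, and the interaction on all 6. The fits were tested on simulated data. Positions, classes and lengths came from GENCODE on GRCh37, matched by symbol for 22904 rows (older names through RefSeq synonyms). Python 3.11.15 with pandas 2.3.3 and matplotlib 3.10.9 did the rest.

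All 9 genes are described. By the rule for naming genes, pathway genes are named where limma called them in any contrast, with NLRC5, PSMB5, PSMB6, PSMB7 and PSMB10, and the 5 genes with the highest r to the mean profile are named as most alike. Members and lists were chosen with earlier results of these data known.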

Additional observations from a re-analysis of the deposited data

Results flagged for a closer look

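TAPBPL was called in the test of the interaction, which compares the sgRNA effect between the lines as labelled. TAPBPL was above its control in both Jeko sgRNA libraries and below it in both libraries labelled Rec-1 sgRNA, and the difference of the effects was −2.76 on the log2 scale (SE 0.38, limma adjusted p = 0.0332). The value contains the library labelled Rec-1 control, which lies close to the Jeko control (24.4 and 25.0 FPKM for TAPBPL). An sgRNA effect in Rec-1 thus cannot be told apart from a difference between cell lines or a mistaken label. Without the filter of 1 FPKM the difference was the same, and the limma adjusted p was 0.0627. When any 1 of the 4 sgRNA libraries was left out the difference stayed between −2.94 and −2.59, with limma adjusted p from 0.105 to 0.144.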

How the results depend on the processing

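No direction of B2M, HLA-B or the called pathway genes changed under any alternative run, and 0 of the members tested (B2M and HLA-B, and without a filter also HLA-C) passed limma's adjusted threshold in any of them. Over its alternatives B2M ranged from 0.35 to 0.87 for sgRNA against control (limma adjusted p 0.0590 to 0.532) and HLA-B from 0.060 to 0.47. At a 1.5-fold threshold, 1 member, B2M, differed from the Rec-1 control with both guides, as did 40.4% of genes. Of 249 alternative values for single genes, members included, 192 kept their side of the threshold and 57 lost it. The 192 include every value of B2M and HLA-B, which had not passed in the main run and stayed so. They also include all 12 of HLA-F, which rest on listed zeros. All 57 losses were therefore among the other called pathway genes. The count of 28 genes for sgRNA against control became 12 without a filter, 17 with length adjustment and 0 by limma among protein-coding genes alone (2318 had an unadjusted p under 0.05). It ranged from 11 to 2180 when 1 library was left out, the highest without the Jeko control, and was 51 without the Rec-1 control. A minimum mean of 5 FPKM gave 1529 genes between the sgRNA groups, in place of 2933, and 318 for the interaction, in place of 791. Leaving out 1 library gave 847 to 1253 and 75 to 454. The cause of these changes was not tested. With a replicate block for guide number the counts were 9 for sgRNA against control and 428 for the interaction, and 4 of the 12 pathway calls were lost (PSME1, PSME2, PSME3 and NFKB1). Guide numbers are the only link between the lines, and deviations of same-numbered guides correlated at 0.0998. Depth is unknown and limits what values near 0, such as those of HLA-C, can show.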
